A study of Danio rerio with 9 samples.

Results

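The transcripts followed here are those of genes that mark neurons, measured in RNA from whole adult zebrafish inner ears after loud sound. The members were taken as the probes whose annotation names snap25a, snap25b, elavl3, elavl4, gap43, stmn2a, syt1a, nefl, nefma or sncb, and 17 of the 21495 gene probes on the array were found, for 8 of the 10 genes. Of these, 11 probes carry the gene symbol (elavl3, elavl4 and gap43 with 3 probes each, and snap25b with 2). The other 6 are named only by the protein in the annotation, namely 2 for snap25a, 1 for beta-synuclein (sncb), 1 for a neurofilament L subunit by similarity to a bovine sequence (nefl) and 2 for Synaptotagmin I, which the annotation does not tie to syt1a. A further 3 probes, for syt1a, stmn2a and sncb, were reached only through the present RefSeq name of their transcript and are kept apart. No nefma probe was found.

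The study compared Control fish, which sat in the sound chamber with the generator off, with fish exposed to a loud low tone and left to recover for 2 days (Day 2) or 4 days (Day 4). All were adult breeder fish, and each group was 1 RNA pool of both ears (saccule, lagena, utricle and semicircular canals) of 18 to 20 fish, hybridized to 3 one-colour Agilent arrays, 9 in all. The 3 arrays of a group are therefore technical replicates, and every P-value below measures the spread between hybridizations and not between fish. The methods allow for residual auditory nerve in the dissected ears, and in such bulk RNA fewer neurons and less RNA per neuron cannot be told apart.

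Neurons of the inner ear are the afferent cells of the statoacoustic ganglion, whose processes contact hair cells and run to the brain in the eighth nerve. Snap25 proteins are SNARE proteins of synaptic vesicle fusion, and synaptotagmin 1 is the calcium sensor of that fusion. Elavl3 and Elavl4 (HuC and HuD) are RNA-binding proteins of differentiated neurons. Neurofilament light chain builds the axonal cytoskeleton, Gap43 is a growth-cone protein of growing and regenerating axons, Stmn2 binds tubulin in growing axons, and beta-synuclein is a presynaptic protein. Sound damage to the ear raises the question of whether such transcripts changed as the ear recovered, which is asked below for each recovery time against Control and for Day 4 against Day 2.

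Values are log2 processed signals relative to the median of each array, so a value of 0 is the array median, and fold changes and SE come from limma with slide as a term. Slide here means arrays with the same scan date in their file headers, and no slide barcode was read. A probe was significantly regulated where its adjusted P-value did not exceed 0.05 and its fold change reached 1.4. The share of spots well above background ran from 39.5% (Day 4 replicate 2) to 56.9% (Day 2 replicate 2), and the median signal from 53.6 to 94.0 intensity units, lowest on Day 4 replicate 2. Slide 3, which held Control 3, Day 2 3 and both Day 4 replicates 2 and 3, had local backgrounds of 129 to 154 units, against 63.5 to 74.0 on slides 1 and 2. The median probe of all 21495 shifted by 0.12, 0.29 and 0.23 in the 3 comparisons. The median of the 8024 probes above background on all 9 arrays shifted by 0.05, 0.11 and 0.06. With normexp background correction in place of the processed signal, the median of these 8024 probes moved to 0.42, -0.11 and -0.55, and many directions turned with it. Normexp values below are scaled on the array median unless another centring is named. Signs and counts of members below are taken against 0 unless a median is named.

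Of the 17 member probes, 11 were well above background on all 9 arrays (elavl3 with 2 probes, elavl4 and gap43 with 3 each, snap25b with 2, and nefl). The elavl3 probe A_15_P100597 and both snap25a probes were above background on 4 arrays each, the symbol-less sncb probe on 5, and both Synaptotagmin I probes on no array. No fold change is given for these 6. No member spot was saturated.

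No member was significantly regulated at either time point. In Day 2:Control the count was 0 of 17, against 0.735% of all probes (158 of 21495); it was 0 of 17 in Day 4:Control, against 0.274% (59 probes), and 0 of 17 in Day 4:Day 2, against 0.0651% (14 probes). With P-values left unadjusted, 1, 3 and 6 members passed 0.05, against 9.25%, 9.47% and 8.98% of all probes. Both forms of the methods' t-test, paired and unpaired, also called 0 members in each comparison. Of all 21495 probes the paired form called 197, 0 and 0, and the unpaired form 735, 21 and 9. In the comparisons with Day 4 the paired form thus called no probe at all and says nothing of the members. Where limma was fitted only to the 10040 probes that cleared background throughout at least 1 group, which held 11 members, nefl was significantly regulated in Day 2:Control, elavl3 probe A_15_P102907 in Day 4:Control, and elavl3 probe A_15_P109471 with elavl4 probes A_15_P101030 and A_15_P120793 in Day 4:Day 2. That fit called 8.99%, 9.48% and 9.5% of its probes in the 3 comparisons. A variance trend with robust estimation called the same 5 probes and 1 snap25a probe not measured on every array, with 4.72%, 4.48% and 4.46% of all probes.

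The values of the 11 measured members by array are plotted next.

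**Figure D1:**
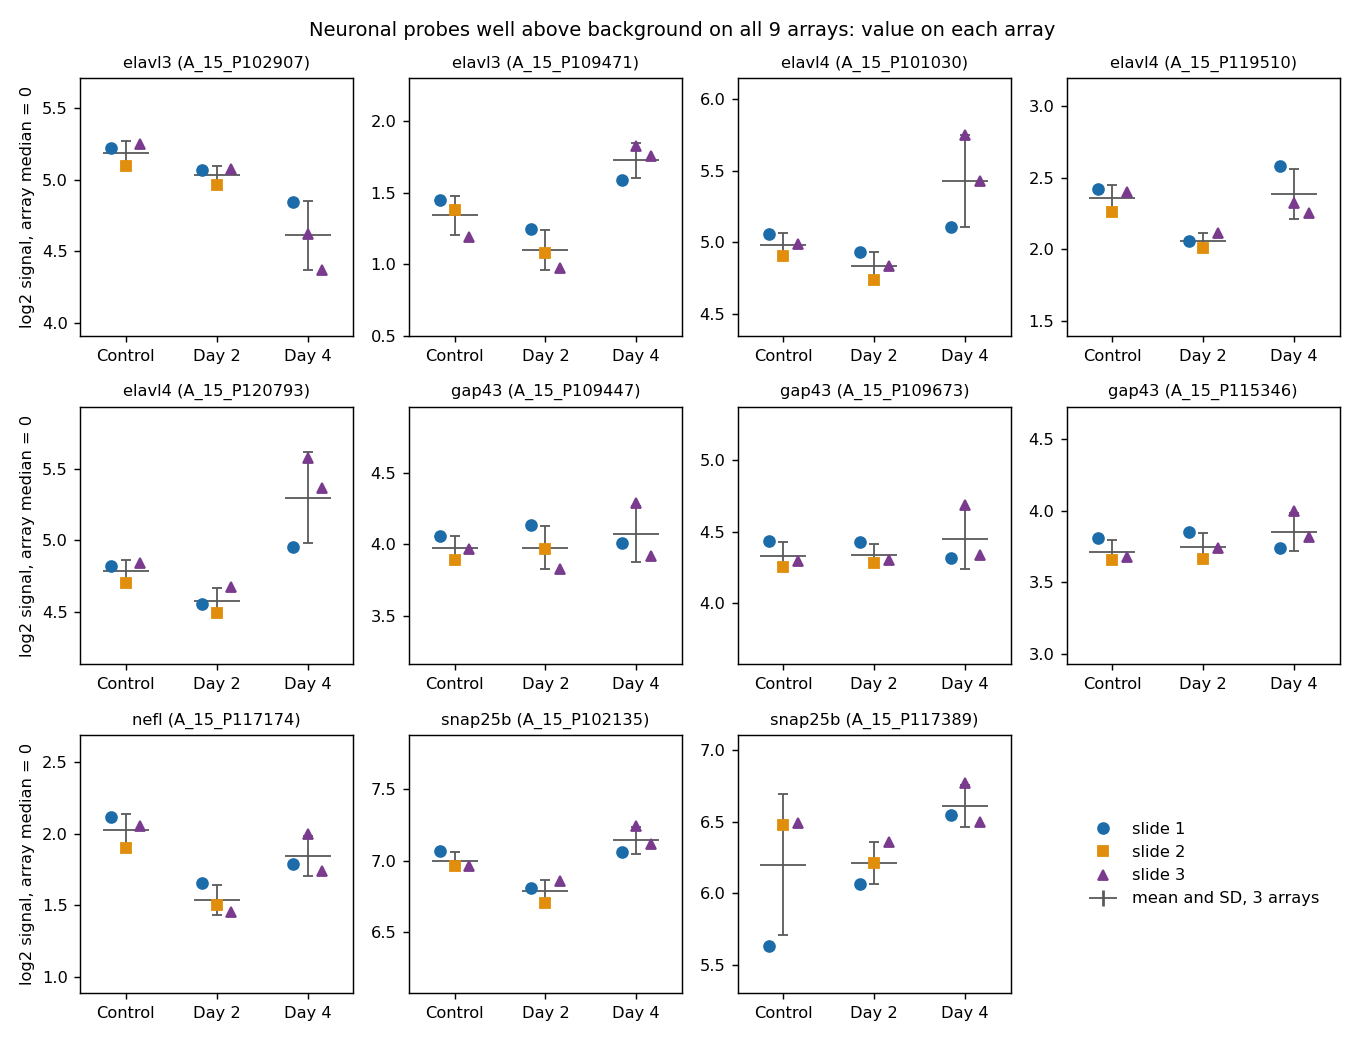
Log2 signal relative to the array median (y axis) of each of the 11 measured neuronal probes in Control, Day 2 and Day 4, 1 point per array, marked by slide, with the mean and SD of 3 arrays. Each panel covers the same span of log2 units at its own level; nefl lay lower on all 3 Day 2 arrays than on any Control array, and the elavl3 panels run opposite ways on Day 4, directions that held under every scaling tried.

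Snap25b, the plasma-membrane SNARE of vesicle fusion, was read by 2 probes on chromosome 17 that share 57 of their bases (A_15_P102135, chr17:6986148-6986207, and A_15_P117389, chr17:6986151-6986210, both on the plus strand of danRer2, the build of the array annotation). A_15_P102135 measured 7.07, 6.96 and 6.97 in Control, 6.81, 6.71 and 6.86 on Day 2 and 7.06, 7.25 and 7.12 on Day 4. The Day 2 arrays lay below all arrays of both other groups, while Control and Day 4 overlapped. Its log2 fold change was -0.21 ± 0.12 (SE) in Day 2:Control (adjusted P = 0.83), 0.11 ± 0.13 in Day 4:Control (adjusted P = 0.628) and 0.32 ± 0.13 in Day 4:Day 2 (adjusted P = 0.557), and with normexp correction all 3 signs turned (0.26, -0.24 and -0.495).

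A_15_P117389 measured 5.63, 6.48 and 6.49 in Control, 6.06, 6.21 and 6.36 on Day 2 and 6.55, 6.77 and 6.50 on Day 4. Its low Control value came from replicate 1, where the paired spots read 2257 and 8723 intensity units and neither carried an outlier flag. On Day 2 replicate 1 the paired spots also differed (4840 and 7627), whereas those of A_15_P102135 agreed on both arrays (11935 and 12084, 10310 and 10069). The fold change of A_15_P117389 was 0.01 ± 0.21 in Day 2:Control, and -0.23 without Control replicate 1. Its values in Day 4:Control and Day 4:Day 2 were 0.41 ± 0.22 (adjusted P = 0.523), or 0.15 without Control replicate 1, and 0.40 ± 0.22 (adjusted P = 0.68), the latter -0.33 with normexp correction.

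The Elav-like genes were read by 5 measured probes. For elavl4 on chromosome 8, A_15_P120793 (chr8:9977800-9977859) measured 4.82, 4.70 and 4.84 in Control, 4.56, 4.49 and 4.67 on Day 2 and 4.95, 5.57 and 5.36 on Day 4. The 3 groups did not overlap, with Day 2 lowest and Day 4 highest. The log2 fold change was -0.21 ± 0.15 in Day 2:Control (adjusted P = 0.952), 0.43 ± 0.16 in Day 4:Control (adjusted P = 0.503) and 0.64 ± 0.16 in Day 4:Day 2 (adjusted P = 0.335). The first and last of these turned to 0.22 and -0.16 with normexp correction. Neither turned with normexp values centred on the median of the measured probes. In Day 4:Day 2 the probe was significantly regulated under quantile normalization (adjusted P = 0.0165, with 2.92% of all probes called). Within slides 1 and 3 the log2 fold change was 0.13 and 0.63 in Day 4:Control, and 0.40 and 0.80 in Day 4:Day 2.

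The second elavl4 probe, A_15_P101030 (chr8:9977613-9977672), which shares no base with the first, gave 5.06, 4.90 and 4.99 in Control, 4.93, 4.74 and 4.83 on Day 2 and 5.11, 5.75 and 5.43 on Day 4. It had the same order, with overlap between Control and Day 2, and a log2 fold change of 0.53 ± 0.19 in Day 4:Day 2 (adjusted P = 0.513; -0.19 with normexp correction). That value was 0.17 within slide 1 and 0.76 within slide 3. The third, A_15_P119510, whose mapped span runs from 9974439 to 9976911, gave 2.42, 2.26 and 2.40, then 2.06, 2.01 and 2.11, then 2.58, 2.33 and 2.25. Here Day 2 was again lowest on every array, but Day 4 overlapped Control (0.01 ± 0.14). Its Day 2:Control value was -0.30 ± 0.13 (adjusted P = 0.583; 0.04 with normexp correction).

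The elavl3 probes on chromosome 3 differed from each other on Day 4. A_15_P102907 (chr3:40564947-40565006) measured 5.22, 5.10 and 5.25 in Control, 5.07, 4.97 and 5.07 on Day 2 and 4.84, 4.62 and 4.37 on Day 4. Each group lay below the one before with no overlap, though the Day 2:Control value of -0.15 ± 0.15 (adjusted P = 0.952) turned to 0.27 with normexp correction. Its log2 fold change was -0.60 ± 0.16 in Day 4:Control (unadjusted P = 0.00928, adjusted P = 0.331), and that value stayed below 0 under every alternative run. Within slides 1 and 3 it was -0.38 and -0.75.

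A_15_P109471 (chr3:40563275-40563334), whose start lies 1672 bases from that of the other, measured 1.45, 1.38 and 1.19 in Control, 1.25, 1.08 and 0.97 on Day 2 and 1.59, 1.83 and 1.76 on Day 4. Its Day 4 arrays lay above all others, and Control and Day 2 overlapped. The log2 fold change was 0.40 ± 0.16 in Day 4:Control (adjusted P = 0.516) and 0.64 ± 0.16 in Day 4:Day 2 (adjusted P = 0.315), both above 0 under every alternative run. In Day 4:Day 2 the probe was significantly regulated under quantile normalization (adjusted P = 0.0473, with 2.92% of all probes called). Within slides 1 and 3 the log2 fold change was 0.14 and 0.60 in Day 4:Control, and 0.35 and 0.82 in Day 4:Day 2. Which exon or UTR either probe reads was not determined here, since no annotation of that build was at hand, and a single elavl3 level cannot be given.

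Among axonal genes, nefl (A_15_P117174, chr8:1706839-1706898), the light neurofilament subunit, had the lowest Day 2:Control value of the 11. It measured 2.12, 1.90 and 2.06 in Control, 1.66, 1.50 and 1.46 on Day 2 and 1.79, 2.00 and 1.74 on Day 4. Day 2 lay below both other groups on every array, and Day 4 overlapped Control, but the Day 4:Day 2 value of 0.27 ± 0.15 (adjusted P = 0.668) turned to -0.10 with normexp correction. The log2 fold change was -0.49 ± 0.14 in Day 2:Control, which is the 1.4-fold limit itself (unadjusted P = 0.0125, adjusted P = 0.28), and it was -0.46, -0.40 and -0.60 within slides 1, 2 and 3. It was significantly regulated under 75th percentile scaling (adjusted P = 0.0228, with 2.93% of all probes called), quantile normalization (adjusted P = 0.0107, 3.55%), centring on the measured probes (adjusted P = 0.0194, 2.92%), a variance trend (adjusted P = 0.0152) and the filter on dim probes (adjusted P = 0.00408), and its direction in Day 2:Control held in all alternatives run.

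Gap43 was level. Its 3 probes on chromosome 1, of which A_15_P109447 and A_15_P115346 share 39 bases, had log2 fold changes of 0.00 to 0.04 in Day 2:Control, 0.08 to 0.10 in Day 4:Control and 0.07 to 0.09 in Day 4:Day 2, with SE of 0.13 to 0.17. A_15_P109673 (chr1:35327506-35327565) measured 4.44, 4.26 and 4.30, then 4.43, 4.29 and 4.31, then 4.32, 4.69 and 4.34. The groups overlapped in every comparison for all 3 probes, and the single high value was that of Day 4 replicate 2. Signs of values this close to 0 turned under several scalings. In Day 4:Day 2, normexp correction gave -0.51, -0.60 and -0.52 for A_15_P109447, A_15_P109673 and A_15_P115346, beside a median of -0.55 over all measured probes.

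The 3 probes reached by RefSeq name were above background on all 9 arrays. That for sncb (A_15_P115232) measured 6.39, 6.29 and 6.29 in Control, 6.16, 6.08 and 6.14 on Day 2 and 6.47, 7.14 and 6.91 on Day 4, with no overlap between groups. Its Day 2:Control value of -0.19 (adjusted P = 0.952) turned to 0.24 with normexp correction. Its log2 fold change was 0.66 ± 0.19 in Day 4:Day 2 (adjusted P = 0.397; -0.11 with normexp correction), and it was significantly regulated there under quantile normalization (which called 2.92% of all probes), a variance trend and the filter on dim probes. That value was 0.31 within slide 1 and 0.89 within slide 3. The stmn2a probe (A_15_P114652) had values of -0.26 ± 0.14 in Day 2:Control and 0.33 ± 0.15 in Day 4:Day 2, each of the other sign with normexp correction (0.12 and -0.25). The syt1a probe (A_15_P102802) had 0.14 ± 0.13, 0.22 ± 0.14 and 0.08 ± 0.14, the last of which turned to -0.53 with normexp correction, and only Day 4 and Control did not overlap.

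As a group, the 11 measured members had a median log2 fold change of -0.15 in Day 2:Control. These probes read 5 genes, and some share bases, so counts of probes are not counts of genes. Against 0, 7 were lower and 4 higher, beside 39.1% lower among all 8024 measured probes. All 11 lay below the median of the measured probes (0.05), the highest at 0.04. In 5 of the 11 the Day 2 and Control arrays did not overlap, all lower on Day 2, against 42.4% of measured probes in either direction and 12.8% lower. In Day 4:Control the median was 0.10, beside 0.11 over all measured probes. There 5 of 11 did not overlap (4 higher, 1 lower), against 31.7% of measured probes (28.4% higher, 3.25% lower). In Day 4:Day 2 the median was 0.31, beside 0.06 over all measured probes, and 10 of 11 were higher, beside 60.4% of measured probes. In that comparison 8 of 11 did not overlap (7 higher, 1 lower), against 30.5% (22.2% higher, 8.23% lower). Over all 17 members, 6, 6 and 10 did not overlap, against 24.4%, 18.7% and 18.5% of all 21495 probes.

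**Figure D2:**
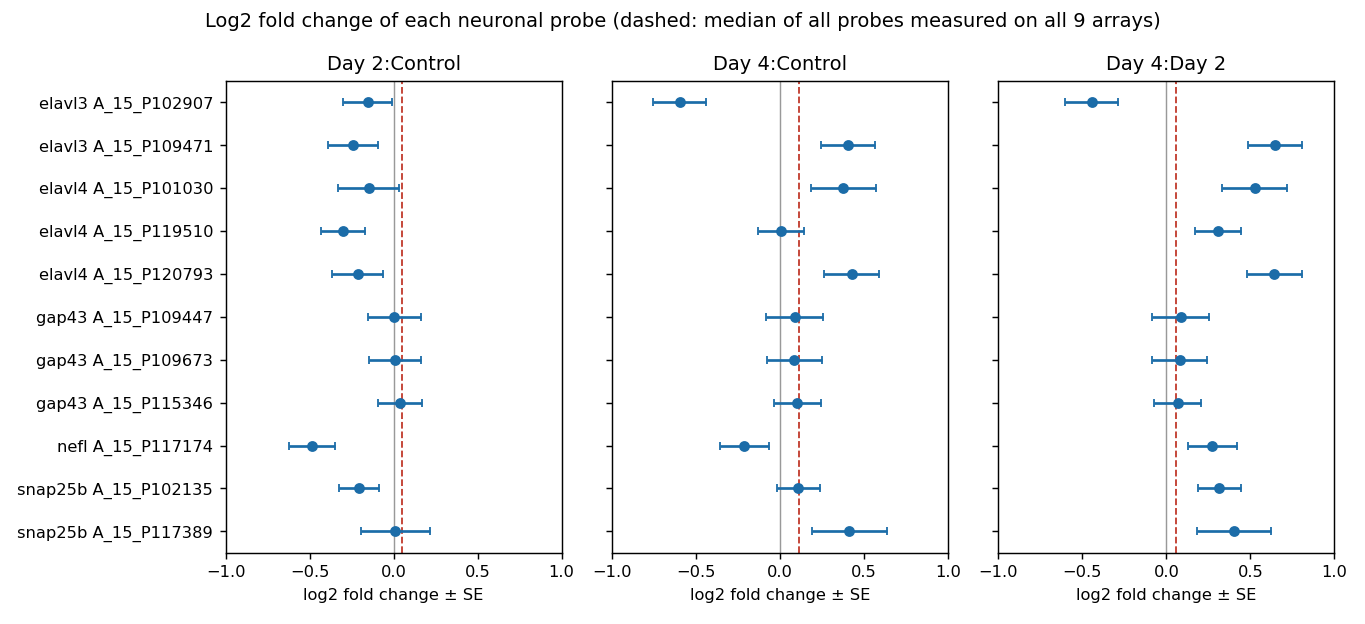
Log2 fold change (x axis) with its SE for the 11 measured neuronal probes in the 3 comparisons, with a dashed line at the median of the 8024 measured probes. On these processed signals 7 of 11 lay below 0 in Day 2:Control and 10 of 11 above 0 in Day 4:Day 2. These counts turned to 1 and 1 with normexp correction scaled on the array median, and were 11 and 10 with normexp values centred on the measured probes.

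The directions of the group depended on how the arrays were scaled. With each array centred on the median of the measured probes, a choice made after seeing the data, 11 of 11 members lay lower in Day 2:Control (median -0.23), 7 lower and 4 higher in Day 4:Control (median -0.01), and 10 of 11 higher in Day 4:Day 2 (median 0.27). The 75th percentile and quantile scalings gave the same 11 of 11 and 10 of 11. With normexp correction scaled on the array median, 10 of 11 lay higher in Day 2:Control and 10 of 11 lower in Day 4:Day 2, whereas the same normexp values centred on the measured probes gave 11 of 11 lower (median -0.21) and 10 of 11 higher (median 0.27). Within slides, on the processed signals, 8, 8 and 9 of the 11 were lower on Day 2 than in Control on slides 1, 2 and 3, and 7 and 10 of 11 were higher on Day 4 than on Day 2 on slides 1 and 3. In Day 4:Control 5 and 8 of 11 were higher on slides 1 and 3, with medians of -0.004 and 0.215. Without Day 4 replicate 2, the dimmest array, Day 4:Day 2 had 7 of 11 higher.

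**Figure D3:**
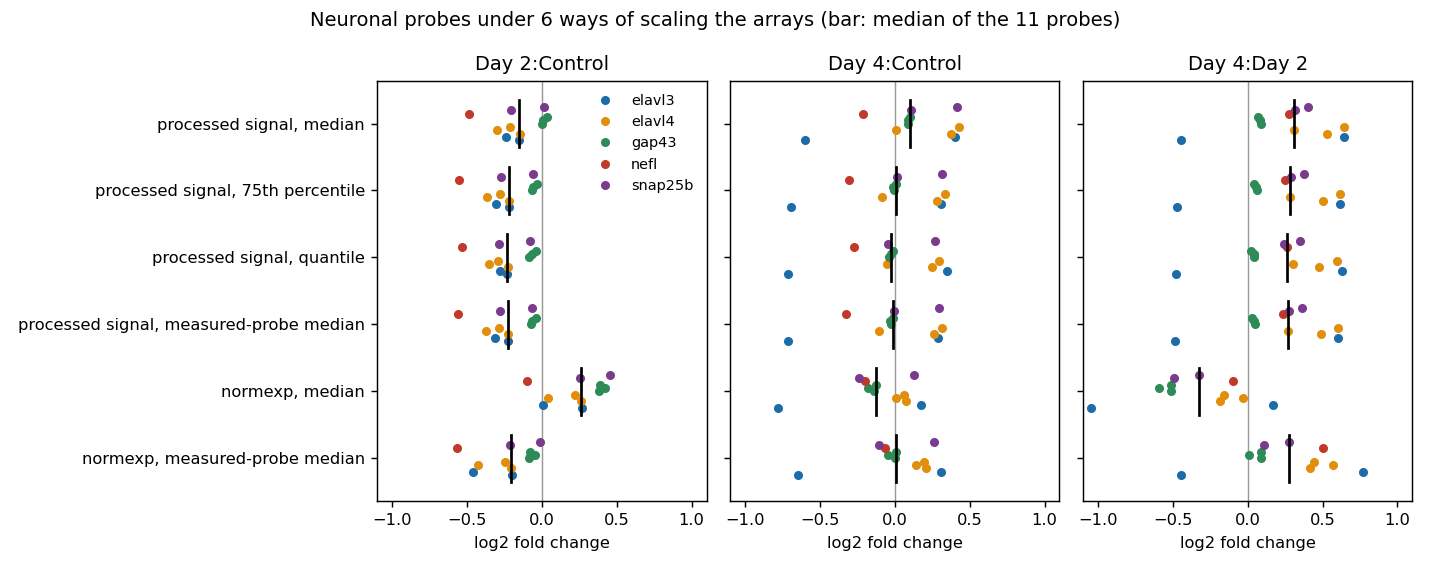
Log2 fold change (x axis) of the 11 measured neuronal probes, coloured by gene, in the 3 comparisons under 6 scalings (rows), with a bar at their median. The median lies below 0 in Day 2:Control and above 0 in Day 4:Day 2 in every row except normexp with the array median, where it is 0.26 and -0.33.

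Other neuronal genes were counted in 4 lists. None of their probes was significantly regulated in the fit reported, against 0.735%, 0.274% and 0.0651% of all probes in the 3 comparisons. The synaptic vesicle and release list had 19 probes for 13 of its 44 genes. Of its 14 measured probes, 14 were lower in Day 2:Control (median -0.20) and 14 higher in Day 4:Day 2 (median 0.38), beside 39.1% and 60.4% of all measured probes. With normexp correction these counts became 1 lower and 0 higher, while the median of all measured probes moved to 0.42 and -0.55. The syt11a probe, for a synaptotagmin, had -0.45 in Day 2:Control (adjusted P = 0.41) and 0.61 in Day 4:Day 2 (adjusted P = 0.374, and -0.039 with normexp correction). It was significantly regulated under 3 of 24 settings in each of these comparisons. The dnajc5aa probe, for cysteine string protein, a vesicle chaperone, had 0.64 in Day 4:Day 2 (adjusted P = 0.412; -0.076 with normexp correction). In Day 4:Control the largest values were those of dnajc5aa, at 0.47, and of 2 probes for vamp2, the vesicle SNARE, at 0.47 and 0.46 (adjusted P = 0.523 for all). With the filter on dim probes, 7 probes of the list were significantly regulated in Day 4:Day 2, all higher, in a fit that called 9.5% of its probes. In that fit the axon and neuronal cytoskeleton list below had 3 called higher and 5 lower in Day 4:Day 2, and 4 higher and 1 lower in Day 2:Control. Calls of that fit for the remaining lists and comparisons are not given here.

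The axon and neuronal cytoskeleton list (31 probes, 17 measured) had medians of -0.01, 0.08 and 0.17 (0.42, -0.15 and -0.50 with normexp correction). Its largest Day 2 values were of tubulins, with 0.84 and 0.80 for 2 tuba1b probes (adjusted P = 0.0755 and 0.0984) and 0.61 for tubb5 (adjusted P = 0.183) in Day 2:Control, and -1.04, -0.74 and -0.62 in Day 4:Day 2, with signs that held under all 24 settings. In Day 2:Control tuba1b probe A_15_P103651 was significantly regulated under 9 of these settings, and tuba1b probe A_15_P110343 and tubb5 under 8 each. In Day 4:Day 2 they were under 6, 5 and 5. These tubulins are also made by other dividing and differentiating cells. On Day 4 its largest values were of stmn4, a stathmin of neurons, at 0.80 and 0.78 in Day 4:Control (adjusted P = 0.149 and 0.167), above 0 under all 24 settings. The list of RNA-binding and transcription factors (22 probes, 10 measured) had medians of -0.05, 0.27 and 0.32. All 10 were higher in Day 4:Control, where the median of all measured probes was also above 0 (0.11). With normexp correction 4 of 10 were higher, and the median of all measured probes was -0.11. In this list celf4, an RNA-binding protein of neurons, had 0.62 in Day 4:Day 2 (adjusted P = 0.351, and -0.042 with normexp correction). The celf4 probe was significantly regulated there under 4 of the 24 settings. The 3 largest Day 2:Control values of the list, against the sign of the median, were of 3 probes for isl2b, a LIM homeodomain factor of sensory and motor neurons. They were 0.40, 0.32 and 0.30 (adjusted P = 0.402, 0.597 and 0.527), above 0 under all 24 settings.

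The neurotransmitter, receptor and channel list (32 probes, 10 measured) had medians of -0.14, 0.13 and 0.32. In it 9 of 10 were lower in Day 2:Control and 10 of 10 higher in Day 4:Day 2, beside 39.1% and 60.4% of all measured probes. Normexp correction turned these counts to 0 lower and 1 higher, with medians over all measured probes of 0.42 and -0.55. The gria1a probe, for an AMPA receptor subunit, had 0.69 in Day 4:Control (adjusted P = 0.318), and slc6a1b, a GABA transporter, had -0.45 in Day 2:Control (adjusted P = 0.638, and 0.012 with normexp correction). The slc6a1b probe was significantly regulated under 2 of 24 settings in Day 4:Day 2 and under none in the other comparisons.

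Markers of other cells were counted too. Some of their probes were significantly regulated in Day 2:Control or Day 4:Control, and the part of other cells in the neuronal values was not tested. Hair cell markers, which check the tissue, were above background on all arrays for 7 of 11 probes, those of atoh1a, myo7aa and pvalb8 among them, while those of otofa, cdh23 and cacna1da were above it on no array. None was significantly regulated, and the medians were 0.06, 0.05 and 0.16 (0.43, -0.23 and -0.56 with normexp correction). Of 31 glia and myelin probes, 22 were measured and 4 above background on no array, and their summed level was 7157 to 7662 times the array median in Control, 6698 to 7641 on Day 2 and 7393 to 9955 on Day 4. Of 4 probes for gfap, the filament of astroglia, 3 were significantly regulated in Day 2:Control, at -1.11, -0.99 and -1.13 (adjusted P = 0.0315, 0.0473 and 0.0317). These 3 were below 0 under all 24 settings. They were not significantly regulated with replicate number as the block (adjusted P = 0.0611, 0.0679 and 0.063). The same held with normexp correction (adjusted P = 0.824 for each), which called 1 of all 21495 probes in Day 2:Control. The fourth gfap probe was above background on no array.

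Of 38 probes for brain-region genes, 24 were above background on no array and 7 on all, and their summed level was 175 to 195 in Control, 168 to 180 on Day 2 and 170 to 224 on Day 4. Those above it on all arrays included probes for zic1, pax2a and dlx5a, and whether these read brain or ear tissue was not tested. In Day 2:Control zic1 probes A_15_P107459 and A_15_P110305 were below 0 under all 24 settings and significantly regulated under 5 and 4. Those for pax2a and dlx5a were significantly regulated there under none. The neurod6b probe, for a forebrain transcription factor, was significantly regulated in Day 2:Control (adjusted P = 0.0173, 0.0504 with replicate number as the block and 0.824 with normexp correction), with values of 0.005, -0.039 and 0.041 in Control and -2.29, -2.74 and -2.08 on Day 2. It was above background on 2 Control arrays and on no other, so no fold is given. The summed level of 12 pituitary probes, of which 1 was measured and 6 above background on no array, was 5.99 to 7.13 in Control, 38.7 to 45.0 on Day 2 and 41.3 to 56.3 on Day 4. Of these, 5 were significantly higher in Day 2:Control and 4 in Day 4:Control, against 0.735% and 0.274% of all probes. The cga probe, called in both, and the fshb probe, called in Day 2:Control, were above background on at most 1 array of any group. No fold is given for them. Also called in both was the measured lhb probe, for the luteinizing hormone beta subunit, at 3.40 and 3.51 (adjusted P = 0.00293 and 0.00402). With normexp correction that lhb probe had 2.499 and 1.85, with no pituitary probe significantly regulated. Normexp correction called 1, 0 and 0 of all 21495 probes in the 3 comparisons, so the lack of a call with it is not particular to these probes. The summed level of neuroendocrine granule genes was 847 to 904, 744 to 851 and 870 to 1100. All 17 member probes summed to 353 to 378, 320 to 347 and 390 to 467. That sum includes probes not above background on every array. It also includes both snap25b probes, the highest of the members, which share 57 bases. All summed levels here are relative to the array median, which was lowest on Day 4 replicate 2 (53.6 intensity units). They were not computed under another scaling. Of 44 skeletal muscle probes, 1 was significantly lower in Day 2:Control (pvalb4, a parvalbumin, at -1.42, adjusted P = 0.022, or 0.824 with normexp correction) and 6 in Day 4:Control, against the 0.735% and 0.274% of all probes called. With normexp correction none of those 6 was called (adjusted P = 0.9998 for each), and the myl1 probe among them was above background on only 1 Day 4 array. The summed level of the 44 probes was 399 to 427, 371 to 413 and 282 to 348. The 10 blood and macrophage probes summed to 2143 to 2341, 2228 to 2539 and 2008 to 3134. Of these, mpeg1.1, a macrophage gene, was significantly higher in Day 2:Control at 1.23 (adjusted P = 0.0262, 0.0515 with replicate number as the block and 0.824 with normexp correction). It was called under 11 of the 24 settings. In the same comparison coro1a had 0.76 (adjusted P = 0.0794) and 2 lyz probes 0.73 and 0.62 (adjusted P = 0.196 and 0.149). All these values were above 0 under all 24 settings.

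**Figure D4:**
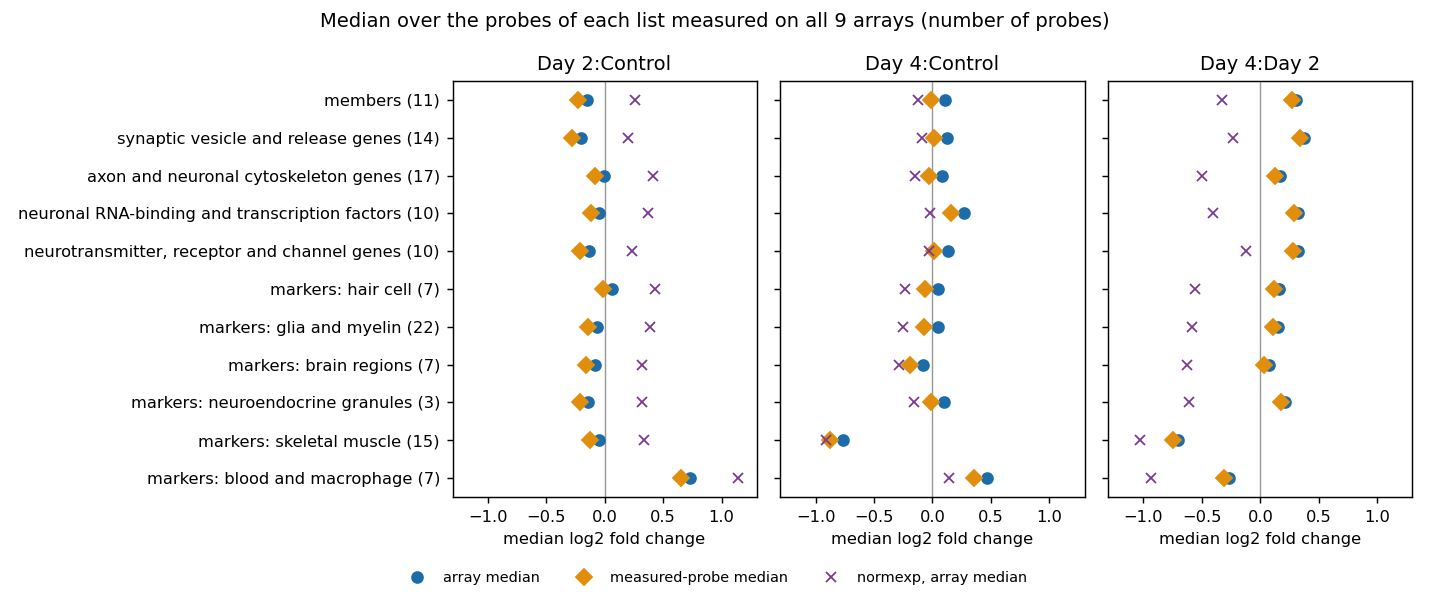
Median log2 fold change (x axis) over the measured probes of each list, with their number in brackets, in the 3 comparisons and under 3 scalings; the pituitary list, with 1 measured probe, is left out. Members and the synaptic vesicle list had medians of -0.15 and -0.20 in Day 2:Control and 0.31 and 0.38 in Day 4:Day 2 with the array median. Their medians had the other sign with normexp correction, where the median of all measured probes was 0.42 and -0.55.

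The probes most like each member over the 9 arrays were taken among 5373 measured probes with a gene symbol, as a description over arrays that share slides and scaling. Those closest to elavl4 probe A_15_P120793 were noc3l (Pearson r = 0.996), calm3a (r = 0.993) and pcdh2ac (r = 0.993), and those closest to A_15_P101030 were ak1 (r = 0.998), kat5a and ube2d2 (r = 0.996 for both). For nefl they were cyp26a1 and hhatla (r = 0.986 for both) and neff1, another neurofilament gene (r = 0.982). For snap25b probe A_15_P102135 they were atp1b1b (r = 0.976), frs2b and zgc:92275 (r = 0.974 for both), and for elavl3 probe A_15_P102907 they were ckbb (r = 0.99), pdcd4b (r = 0.988) and psmc3 (r = 0.98).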

How the data were processed

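RNA pools of the 3 groups were hybridized to 9 one-colour arrays. The authors scanned them and extracted spots with Agilent Feature Extraction 9.5.1, and the deposited files hold the processed signal of each spot as intensity, background-subtracted and not normalized between arrays. The deposited tables of the authors' own fold changes and P-values, with group means, were not used. Each array's log2 signals had the 50th percentile over gene spots subtracted, following the methods, outlier-flagged spots were left out, and the 2 spots of a probe were averaged. A probe was above background on an array where all its remaining spots carried that flag.

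limma 3.58.1 in R 4.3.3 was fitted to 21495 probes with group and slide (arrays sharing a scan date in their headers), with Benjamini-Hochberg adjustment over all probes, and was tested on simulated data. Slide and replicate number coincided for Control and Day 2 only, since 2 Day 4 arrays shared the scan date of slide 3. The methods describe 1 replicate of each time point on a slide, and the scan date was followed here. Deviations from the group means over measured probes correlated at 0.504, 0.267 and 0.542 between same-numbered Control and Day 2 arrays, and at 0.0949, 0.0158 and 0.122 between Control and Day 4. Of the array's probes, 10303 matched a RefSeq symbol by symbol, synonym or accession.

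The members and lists were chosen with earlier results of these data known. Named genes were, besides the members, the significantly regulated probes of each list or the 3 largest fold changes per comparison among measured probes, of which the text gives a part. Probe positions are those in the array annotation (danRer2). Alternatives were the scaling, normexp (offset 50), slide or replicate block, 2 groups alone, variance trend, a filter on dim probes, outlier spots kept, the methods' t-test, and each array or slide 3 left out. Probe sequences were not used here. The number of arrays limits the precision.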

Additional observations from a re-analysis of the deposited data

How the results depend on the processing

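No member was significantly regulated in the fit reported, nor with normexp correction (either centring), without a block, with only 2 groups, with outlier spots kept, without slide 3, without any 1 array, or by the methods' t-tests. The replicate block in place of the slide called 0 members in each comparison and 80, 57 and 13 of all probes, and among the probes named by rule it ended 6 calls in Day 2:Control, those of A_15_P109841 (adjusted P = 0.0717), 3 gfap probes (0.0611, 0.0679 and 0.063), neurod6b (0.0504) and mpeg1.1 (0.0515), and called the pituitary fshb in Day 4:Control (0.0349). In Day 2:Control the members called were 1 under 75th percentile scaling, 1 under quantile normalization, 1 with the filter on dim probes, 1 with arrays centred on the measured probes and 2 with a variance trend. In Day 4:Control they were 1 with the filter and 1 with the trend, and in Day 4:Day 2 they were 2 under quantile normalization, 3 with the filter and 3 with the trend. Over all probes the calls in the 3 comparisons were 158, 59 and 14 as reported, 629, 290 and 367 under 75th percentile scaling, 762, 488 and 628 under quantile normalization, 1, 0 and 0 with normexp correction, 502, 293 and 182 without a block, 11, 25 and 0 with only 2 groups, 1015, 962 and 958 with the trend, 903, 952 and 954 with the filter, 628, 292 and 388 with arrays centred on the measured probes, 197, 0 and 0 by the paired and 735, 21 and 9 by the unpaired t-test, and 0 without slide 3 and with normexp values centred on the measured probes. Both centrings on measured probes were chosen after seeing the data. Under 75th percentile scaling the Day 2:Control values that changed sign were those of gap43 A_15_P109447 -0.066, gap43 A_15_P109673 -0.062, gap43 A_15_P115346 -0.033 and snap25b A_15_P117389 -0.058. Under 75th percentile scaling the Day 4:Control values that changed sign were those of elavl4 A_15_P119510 -0.089, gap43 A_15_P109447 -0.0074, gap43 A_15_P109673 -0.011 and stmn2a -0.028. Under quantile normalization the Day 2:Control values that changed sign were those of gap43 A_15_P109447 -0.086, gap43 A_15_P109673 -0.067, gap43 A_15_P115346 -0.038 and snap25b A_15_P117389 -0.080. Under quantile normalization the Day 4:Control values that changed sign were those of elavl4 A_15_P119510 -0.054, gap43 A_15_P109447 -0.043, gap43 A_15_P109673 -0.024, gap43 A_15_P115346 -0.014, snap25b A_15_P102135 -0.045 and stmn2a -0.063. With arrays centred on the measured probes the Day 2:Control values that changed sign were those of gap43 A_15_P109447 -0.073, gap43 A_15_P109673 -0.069, gap43 A_15_P115346 -0.039 and snap25b A_15_P117389 -0.065. With arrays centred on the measured probes the Day 4:Control values that changed sign were those of elavl4 A_15_P119510 -0.11, gap43 A_15_P109447 -0.027, gap43 A_15_P109673 -0.030, gap43 A_15_P115346 -0.012, snap25b A_15_P102135 -0.0060 and stmn2a -0.047. With normexp correction the Day 2:Control values that changed sign were those of elavl3 A_15_P102907 0.27, elavl3 A_15_P109471 0.0059, elavl4 A_15_P101030 0.26, elavl4 A_15_P119510 0.040, elavl4 A_15_P120793 0.22, snap25b A_15_P102135 0.26, sncb 0.24 and stmn2a 0.12. With normexp correction the Day 4:Control values that changed sign were those of gap43 A_15_P109447 -0.14, gap43 A_15_P109673 -0.18, gap43 A_15_P115346 -0.13, snap25b A_15_P102135 -0.24 and stmn2a -0.13. With normexp correction the Day 4:Day 2 values that changed sign were those of elavl4 A_15_P101030 -0.19, elavl4 A_15_P119510 -0.033, elavl4 A_15_P120793 -0.16, gap43 A_15_P109447 -0.51, gap43 A_15_P109673 -0.60, gap43 A_15_P115346 -0.52, nefl -0.10, snap25b A_15_P102135 -0.49, snap25b A_15_P117389 -0.33, sncb -0.11, stmn2a -0.25 and syt1a -0.53. With normexp values centred on the measured probes the Day 2:Control values that changed sign were those of gap43 A_15_P109447 -0.089, gap43 A_15_P109673 -0.049, gap43 A_15_P115346 -0.079 and snap25b A_15_P117389 -0.010. With normexp values centred on the measured probes the Day 4:Control values that changed sign were those of gap43 A_15_P109447 -0.0027, gap43 A_15_P109673 -0.045, snap25b A_15_P102135 -0.10 and stmn2a -0.0003. With normexp values centred on the measured probes the Day 4:Day 2 value of A_15_P109841 changed sign, to 0.084. Without the arrays of slide 3 the Day 4:Control values that changed sign were those of gap43 A_15_P109447 -0.051, gap43 A_15_P109673 -0.11, gap43 A_15_P115346 -0.076 and snap25b A_15_P102135 -0.0032. Without the arrays of slide 3 the Day 4:Day 2 values that changed sign were those of gap43 A_15_P109447 -0.12, gap43 A_15_P109673 -0.12, gap43 A_15_P115346 -0.099 and syt1a -0.0010. With 1 array left out at a time, the ranges that crossed 0 were elavl4 A_15_P119510 Day 4:Control -0.12 to 0.067, gap43 A_15_P109447 Day 2:Control -0.069 to 0.10, gap43 A_15_P109447 Day 4:Control -0.034 to 0.20, gap43 A_15_P109447 Day 4:Day 2 -0.053 to 0.20, gap43 A_15_P109673 Day 2:Control -0.044 to 0.065, gap43 A_15_P109673 Day 4:Control -0.036 to 0.22, gap43 A_15_P109673 Day 4:Day 2 -0.043 to 0.21, gap43 A_15_P115346 Day 2:Control -0.018 to 0.079, gap43 A_15_P115346 Day 4:Day 2 -0.0063 to 0.18, snap25b A_15_P117389 Day 2:Control -0.23 to 0.15 and stmn2a Day 4:Control -0.049 to 0.16. The cause of these changes was not tested. Leaving out Control replicate 2 or Day 2 replicate 2 gave the same fit, since the other then stood alone on its slide. The 3 arrays of a group are hybridizations of 1 pool, so differences between fish could not be estimated. Signal over background limited 6 members, which did not clear it on every array and have no fold change here.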

Other observations

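Relatives of the members that the rule did not name gave further values, in both directions, of which a part is given. Probe A_15_P109841 (chr17:20908411-20908470, plus strand, danRer2) is annotated only by a partial match (24%) to a synaptosomal-associated protein 25 entry, without the letter a or b. The gene it reads was not established here. The probe measured 1.095, 0.965 and 1.08 in Control, 2.12, 2.05 and 2.08 on Day 2 and 1.67, 1.99 and 1.93 on Day 4. Its log2 fold change was 1.03 ± 0.13 in Day 2:Control (adjusted P = 0.039), above 0 in all alternatives run. The adjusted P ranged from 4.43e-10 to 0.824 over the alternatives, and it was above 0.05 with normexp correction, with the replicate block, with only 2 groups, without slide 3 and without any 1 of 8 arrays. In Day 4:Control it was 0.77 ± 0.14 (adjusted P = 0.173).

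Both stmn4 probes, whose mapped positions overlap, were higher on Day 4 than on any Control or Day 2 array. A_15_P116933 measured 1.52, 1.29 and 1.27 in Control, 1.59, 1.55 and 1.68 on Day 2 and 2.19, 2.22 and 2.14 on Day 4 (Day 4:Day 2 0.55 ± 0.13, adjusted P = 0.306). Both were above 0 in Day 4:Control and Day 4:Day 2 under all 24 settings, with a lowest Day 4:Day 2 value of 0.0047. The stmn4l probes A_15_P104619 and A_15_P115721 had -0.27 and -0.35 in Day 2:Control (0.046 and 0.072 with normexp correction), and -0.12 and -0.05 in Day 4:Control. A probe annotated as partial Stathmin 4 had 0.18 in Day 4:Control (-0.11 with normexp correction). A synuclein probe, A_15_P106181, had -0.25 in Day 2:Control (0.23 with normexp correction).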
